A study of Mus musculus with 18 samples.

Results

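Lipopolysaccharide (LPS), a bacterial cell wall component, and tumour necrosis factor (TNF), a host cytokine, were each given alone to cultured mouse macrophages, and the chromatin that each left open was compared. The comparison used 4 of the 18 ATAC-seq libraries of the series, 2 in each group, at all 53796 regions. ML is medium for 4 h and then LPS (1 ng/mL) for 4 h. MT is medium for 4 h and then TNF (10 ng/mL) for 4 h. MM, medium throughout, gave the unstimulated level with 2 libraries. All cells were bone marrow-derived macrophages of wild-type C57BL/6 mice aged 6 to 12 weeks. They had been cultured in M-CSF at 20 ng/mL, with replating at day 7. The labels do not say whether the 2 libraries of a group came from separate animals or cultures, so p-values reflect library-to-library spread alone, which may be technical. CL and CT (CpG, 100 nM, for 4 h before LPS or TNF) and PL and PT (polyI:C, 1 µg/mL, for 4 h before LPS or TNF), again with 2 libraries each, gave the same pair of second stimuli after another first stimulus. MC and MP are medium and then CpG or polyI:C.

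LPS is sensed by TLR4 with its partner Ly96, and TLR4 signals through the adaptor MyD88 to NF-kB and AP-1 and, from endosomes, through the adaptor TRIF to IRF3 and type I interferon. TNF binds the receptors Tnfrsf1a and Tnfrsf1b, whose TRAF and cIAP complex also leads to NF-kB and AP-1. Both stimuli therefore meet at NF-kB in macrophages, while a strong interferon arm is known mainly for the TLR ligand. ATAC-seq counts the DNA fragments that a transposase cuts from accessible chromatin. In a bulk library a larger share of cells with an open region and a more open region in each cell cannot be told apart.

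Levels below are the deposited log2 CPM (read counts relative to library size), and differences are ML minus MT ± SE with n = 2 libraries in each group unless stated. A region was called where limma gave an adjusted p below 0.05. The deposited values hold a prior of about 3 reads, so differences at regions with few reads are understated.

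The start windows of 6 genes described below are shown. Most regions that were higher in ML lie outside such windows. Each runs from 250 bases before to 50 after a gene start, 5′ to 3′ on the gene's strand, from RefSeq on GRCm38.p6. Capitals mark matches, on either strand, to the NF-kB letters GGANTTTCC or GGGANTTCC, the interferon response element GAAANNGAA and the AP-1 letters TGANTCA. Ifit3 (chr19:34583279-34583578, plus strand) is shown as an interferon-stimulated gene with 3 response elements, Il6 (chr5:30012864-30013163, plus strand) and Nfkb2 (chr19:46305445-46305744, plus strand) for an NF-kB match and an AP-1 match each, and Acod1 (chr14:103046762-103047061, plus strand) for 1 NF-kB match. Nfkbia (chr12:55492598-55492897, minus strand) is shown as a start that opened with both stimuli, with 2 NF-kB matches and 1 response element. Lcn2 (chr2:32387690-32387989, minus strand) is shown as the named start with the largest difference and holds none of these letters.
Ifit3: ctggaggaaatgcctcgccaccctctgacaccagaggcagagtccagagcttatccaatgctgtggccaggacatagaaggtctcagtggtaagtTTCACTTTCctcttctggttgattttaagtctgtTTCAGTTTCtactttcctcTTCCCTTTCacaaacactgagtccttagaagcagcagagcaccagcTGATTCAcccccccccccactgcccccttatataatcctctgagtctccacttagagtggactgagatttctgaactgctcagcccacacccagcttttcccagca
Il6: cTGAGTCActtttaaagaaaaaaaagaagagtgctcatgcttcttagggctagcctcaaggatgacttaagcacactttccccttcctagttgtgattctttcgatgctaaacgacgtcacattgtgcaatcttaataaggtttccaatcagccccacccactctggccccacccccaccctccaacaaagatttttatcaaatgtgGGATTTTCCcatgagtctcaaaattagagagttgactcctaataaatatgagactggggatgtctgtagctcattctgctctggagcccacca
Nfkb2: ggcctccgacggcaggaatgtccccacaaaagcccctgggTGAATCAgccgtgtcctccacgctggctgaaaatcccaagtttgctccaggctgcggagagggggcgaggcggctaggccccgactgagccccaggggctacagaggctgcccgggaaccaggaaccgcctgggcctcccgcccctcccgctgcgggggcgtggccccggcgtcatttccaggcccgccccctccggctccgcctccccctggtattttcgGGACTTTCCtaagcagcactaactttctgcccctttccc
Acod1: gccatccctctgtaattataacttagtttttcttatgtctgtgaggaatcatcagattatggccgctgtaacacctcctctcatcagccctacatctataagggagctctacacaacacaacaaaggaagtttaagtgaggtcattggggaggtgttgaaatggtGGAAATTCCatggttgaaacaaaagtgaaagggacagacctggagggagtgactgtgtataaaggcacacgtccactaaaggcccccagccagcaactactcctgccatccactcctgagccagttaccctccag
Nfkbia: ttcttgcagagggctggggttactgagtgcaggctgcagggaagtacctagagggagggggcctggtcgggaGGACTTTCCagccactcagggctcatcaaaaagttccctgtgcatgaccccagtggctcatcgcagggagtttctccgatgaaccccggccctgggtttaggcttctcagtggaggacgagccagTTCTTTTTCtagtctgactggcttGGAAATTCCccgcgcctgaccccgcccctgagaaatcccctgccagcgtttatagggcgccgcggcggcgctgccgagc
Lcn2: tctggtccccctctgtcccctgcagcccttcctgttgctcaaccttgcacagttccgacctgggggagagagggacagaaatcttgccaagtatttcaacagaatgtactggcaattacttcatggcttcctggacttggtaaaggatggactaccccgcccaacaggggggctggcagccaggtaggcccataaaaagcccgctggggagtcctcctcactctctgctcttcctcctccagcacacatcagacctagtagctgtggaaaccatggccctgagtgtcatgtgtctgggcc

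More regions were more open after LPS than after TNF. Of 53796 regions, 1934 (3.6%) were higher in ML than in MT and 843 (1.57%) were lower, 2777 (5.16%) in all. Among the higher regions 701 differed at least 2-fold, against 50 of the lower ones. Against medium, 8355 regions (15.5%) were higher and 5524 (10.3%) lower in ML, 25.8% in all, while 3309 (6.15%) were higher and 369 (0.686%) lower in MT, 6.84% in all. These 2 comparisons share the medium libraries. The 2 ML libraries lay above both MT libraries in all 1934 higher regions, and below both in 842 of the 843 lower ones. Over all 53796 regions they lay above both at 15354 and below both at 14411. Such separation was therefore common with 2 libraries per group. The number of calls rests on all 4 libraries, since it was 662 without ML replicate 1 and 953 without ML replicate 2. It was 2165 when MT replicate 1 was left out and 768 when MT replicate 2 was. In these fits 580, 753, 1586 and 715 regions were higher in ML. By the naming rule 105 regions were singled out, 90 of them called, and 41 of the 90 stayed called with each of the 4 libraries left out in turn.

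**Figure D1:**
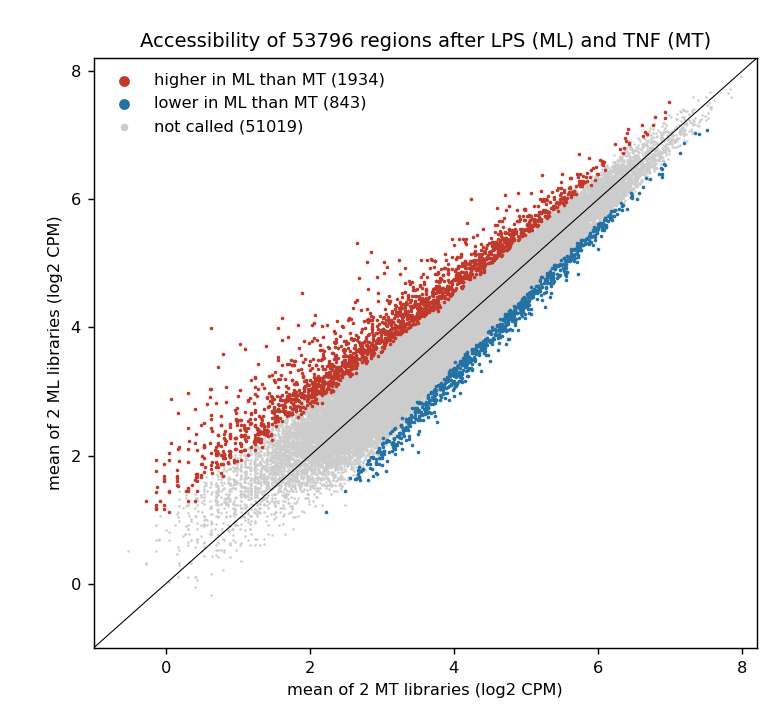
Mean accessibility of each of 53796 regions in the 2 ML libraries (vertical axis, log2 CPM) against the 2 MT libraries (horizontal axis, log2 CPM), with the line of equal values. The 1934 regions higher in ML reach farther from the line than the 843 regions lower in ML.

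The 8 largest rises in ML lay near Uaca, Ms4a6d, Acod1, Radx, Pdss1, Lcn2, Fpr1 and Foxp1, and ranged from 2.56 to 3.36 on the log2 scale. At the Uaca region (chr9:60899704-60900205, between genes, 19273 bases from the gene body) the values were 3.95 and 4.03 in ML, 1.09 and 0.16 in MT, and 1.01 and 0.64 in MM. Of these 3 conditions only ML was high there, with MT near medium. The difference was 3.36 ± 0.26 (adjusted p = 1.71e-11). Inside Pdss1, a gene of coenzyme Q synthesis (chr2:22933555-22934056), values were 5.2 and 5.43 in ML, 2.69 and 2.61 in MT, and 2.96 and 2.85 in MM, a difference of 2.67 ± 0.14 (adjusted p = 6.98e-16). The replicates lay close together, and MT minus MM was -0.25 (adjusted p = 0.394). Inside Foxp1, a forkhead transcription factor gene (chr6:99050455-99050956), values were 3.47 and 3.86 in ML, 0.97 and 1.24 in MT, and 1.01 and 1.91 in MM, a difference of 2.56 ± 0.24 (adjusted p = 1.26e-09). Of the 8 regions, 8 stayed called with each ML or MT library left out in turn.

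Acod1, which encodes the enzyme that makes itaconate in activated macrophages, had the largest number of regions higher in ML than in MT of any gene. Its start opened with both stimuli and the regions along and behind the gene opened mainly with LPS. The start region (chr14:103046654-103047155, 0.108 kb upstream) had 5.26 and 5.3 in ML, 4.6 and 4.71 in MT, and 2.46 and 2.57 in MM. It was 2.76 ± 0.13 above medium in ML and 2.14 ± 0.13 above medium in MT, so most of its opening was present with TNF. ML exceeded MT there by 0.63 ± 0.13 (adjusted p = 0.00334), a call lost without ML replicate 2 (adjusted p = 0.0579). The region 11.1 kb downstream of the start (chr14:103057817-103058318, between genes) had 3.54 and 3.63 in ML, 0.7 and 0.9 in MT, and 0.19 and 0.64 in MM. Here MT was not called against medium (MT minus MM 0.38 ± 0.23, adjusted p = 0.407), and ML exceeded MT by 2.79 ± 0.23 (adjusted p = 6.78e-11). In all, 12 of 22 Acod1 regions were higher in ML than in MT and none was lower. In the comparisons with medium, 17 were higher in ML and 6 in MT. One region upstream of the start (chr14:103033433-103033934) was open in ML, MT and MM alike, with 6.4 and 6.5 in ML, 6.5 and 6.34 in MT, and 6.48 and 6.51 in MM.

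**Figure D2:**
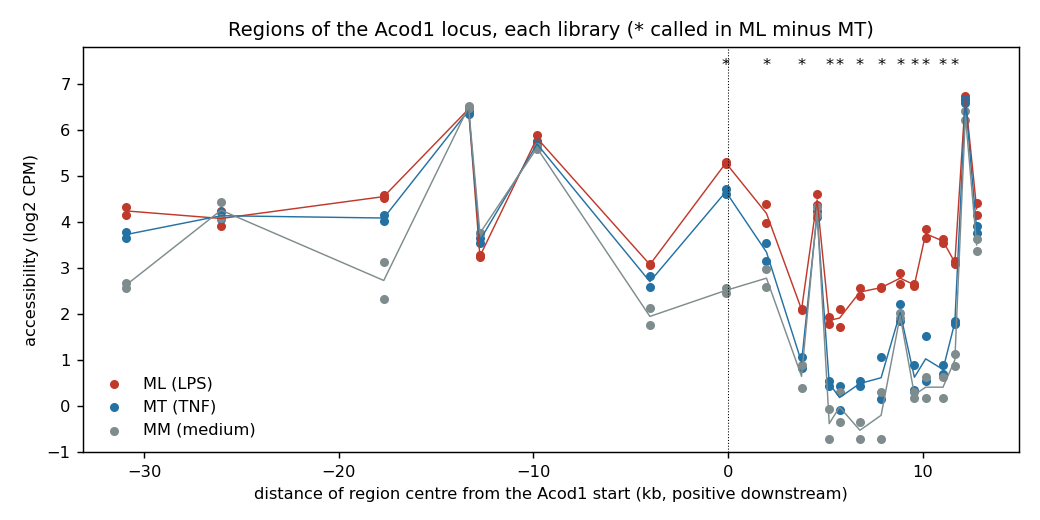
Accessibility (log2 CPM, vertical axis) of the 22 Acod1 regions in each ML, MT and MM library (points) and their means (lines), by distance of the region centre from the gene start (kb, positive downstream). Stars mark the 12 regions called in ML minus MT, at the start and along and behind the gene. At the starred regions other than the start, ML lies above both MT and MM. The MT mean lies nearer to the MM mean than to the ML mean there.

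Other inflammatory enzyme, receptor and acute phase genes followed. Of the 290 regions of this list, which holds Acod1, 50 (17.2%) were higher and 1 was lower in ML than in MT, near 22 of 52 genes, against 3.6% and 1.57% of all regions. The 290 include the 22 Acod1 regions, and the 50 include the 12 higher ones among them. The median difference over the list was 0.23, against 0.01 over all regions. Among 13253 genes with a region, 1264 had at least 1 region higher in ML, and genes with more regions have more chances of a call. The gene counts of the lists below stand beside the same share. The start of Lcn2, which encodes a siderophore-binding protein that withholds iron from bacteria (chr2:32387750-32388251, 0.261 kb upstream), had 3.59 and 3.17 in ML, 0.54 and 0.9 in MT, and 0.19 and 0.64 in MM. Of the 3 conditions only ML was high there, by 2.66 ± 0.34 over MT (adjusted p = 1.78e-06). Beside Fpr1, which encodes a receptor for bacterial formyl peptides (chr17:17884704-17885205, 1.01 kb upstream), values were 4.59 and 4.47 in ML, 1.92 and 1.86 in MT, and 0.4 and 0.64 in MM. TNF opened this region in part, with MT minus MM at 1.37 (adjusted p = 1.27e-05), and ML lay a further 2.64 ± 0.21 above (adjusted p = 4.8e-11). Inside Ptges, the gene of a prostaglandin E2 synthase (chr2:30927090-30927591), values were 6.15 and 6.03 in ML, 5.12 and 4.65 in MT, and 3.12 and 3.02 in MM, a difference of 1.2 ± 0.19 (adjusted p = 5.1e-05). Of 5 regions of Nos2, the inducible nitric oxide synthase gene, 4 were higher in ML and 2 in MT against medium. At its most open region near a gene end (chr11:78920419-78920920), the values were 3.93 and 3.84 in ML, 3.11 and 2.67 in MT, and 2.83 and 3.13 in MM. MT overlapped medium there, and the difference of 0.99 ± 0.2 (adjusted p = 0.00206) lost its call without ML replicate 1 or MT replicate 2 (highest adjusted p = 0.116).

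Cytokine and chemokine genes also had larger shares of regions higher in ML than the 3.6% of all regions. Of 144 cytokine and growth factor regions, 29 (20.1%) were higher and 1 was lower, near 16 of 34 genes, and of 75 chemokine regions 15 (20%) were higher and none lower, near 6 of 20 genes. All 4 Tnf regions were higher in ML. The Tnf start (chr17:35201892-35202393, 0.135 kb upstream) had 5.6 and 5.54 in ML, 4.67 and 4.68 in MT, and 3.7 and 3.53 in MM, without overlap between the groups. TNF itself opened its own gene start by 1.06 over medium (adjusted p = 4.66e-06), and LPS exceeded TNF by 0.89 ± 0.15 (adjusted p = 0.000221). Against medium, 2 of 2 Il6 regions were higher in ML and 1 in MT, which was not the start. The Il6 start shown above (chr5:30012662-30013163) had 4.33 and 4.42 in ML, 3.7 and 3.77 in MT, and 3.54 and 3.68 in MM. TNF libraries lay near medium, and ML exceeded MT by 0.65 ± 0.15 (adjusted p = 0.00728). This small difference was not called with any 1 of the 4 libraries left out (adjusted p 0.0522 to 0.0948).

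Interleukin 12, the cytokine that drives type 1 T cell responses, has 2 chains. The region 9.83 kb upstream of Il12b, which encodes the p40 chain (chr11:44389981-44390482), had 6.11 and 6.03 in ML, 4.69 and 4.72 in MT, and 4.46 and 4.25 in MM, a difference of 1.36 ± 0.12 (adjusted p = 3.69e-10). It was the only called region of 9 near Il12b, and TNF was not called there against medium (0.35, adjusted p = 0.0657). The region within 1 kb of an Il12b gene end (chr11:44414555-44415056) ran the other way, with 4.35 and 4.36 in ML, 4.72 and 4.75 in MT, and 5.18 and 5.18 in MM. ML minus MT was -0.38 ± 0.16 there (adjusted p = 0.15), and ML minus MM was -0.82 (adjusted p = 0.000117). Inside Il12a, the gene of the p35 chain (chr3:68693367-68693868), values were 3.87 and 4.01 in ML, 2.45 and 2.21 in MT, and 2.21 and 1.64 in MM, a difference of 1.61 ± 0.21 (adjusted p = 2.5e-06). Upstream of Il1a, which encodes interleukin 1 alpha (chr2:129311493-129311994), values were 3.7 and 3.61 in ML, 1.92 and 2.43 in MT, and 0.58 and 0.9 in MM. Here TNF opened the region by 1.43 over medium (adjusted p = 2.84e-05) and LPS exceeded TNF by 1.48 ± 0.23 (adjusted p = 5.49e-05). Among chemokines, Ccl5, which attracts T cells and monocytes (chr11:83530280-83530781, within 1 kb of the gene), had 2.32 and 2.58 in ML, 0.7 and 1.08 in MT, and 0.88 and 0.31 in MM. MT overlapped medium, and ML exceeded MT by 1.56 ± 0.26 (adjusted p = 0.000152), as it did at 5 of 7 Ccl5 regions. Upstream of Ccl9, a macrophage chemokine gene (chr11:83580768-83581269), values were 4.95 and 4.93 in ML, 4.03 and 3.41 in MT, and 2.04 and 2.02 in MM. TNF raised it by 1.69 over medium (adjusted p = 8e-08), and ML lay 1.22 ± 0.2 above MT (adjusted p = 9.63e-05). The start of Cxcl10, an interferon-inducible T cell attractant (chr5:92348709-92349210), had 4.99 and 5.06 in ML, 4.63 and 4.69 in MT, and 3.67 and 3.37 in MM, and its difference of 0.37 ± 0.14 did not pass (adjusted p = 0.126). Of 3 Cxcl10 regions 1 was called higher, with low values of 1.53 and 1.94 in ML and 0.84 and 0.69 in MT. Its difference was 0.97 ± 0.28 (adjusted p = 0.0315), and 0.77 to 1.17 with 1 library left out.

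Some interferon-stimulated genes had regions that were more open with LPS than with TNF. Of 286 regions of this list, 34 (11.9%) were higher and none was lower in ML than in MT, near 25 of 81 genes. Against medium, 76 were higher in ML and 18 in MT, beside 15.5% and 6.15% of all regions, so the share in MT (6.29%) lay at the share of all regions and that in ML (26.6%) above it. The start of Ifit3, an antiviral interferon-induced gene (chr19:34583288-34583789), had 4.13 and 4.47 in ML, 3.32 and 3.23 in MT, and 2.93 and 2.97 in MM. The groups did not overlap, and ML exceeded MT by 1.03 ± 0.17 (adjusted p = 0.000172), while MT minus MM was 0.33 ± 0.17 (adjusted p = 0.338). At the start of Oasl1, a 2'-5' oligoadenylate synthetase-like gene (chr5:114922986-114923487), values were 3.82 and 4.46 in ML, 2.31 and 2.83 in MT, and 2.99 and 3.13 in MM. Both TNF libraries lay below both medium libraries without a call (MT minus MM -0.49, adjusted p = 0.137), and ML exceeded MT by 1.57 ± 0.19 (adjusted p = 6.44e-07). Inside Usp18, the gene of the protease that removes ISG15 and restrains interferon receptor signalling (chr6:121249964-121250465), values were 3 and 3.14 in ML, 1.48 and 1.64 in MT, and 1.13 and 1.78 in MM, a difference of 1.51 ± 0.24 (adjusted p = 8.78e-05).

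Inside Parp14, an interferon-inducible ADP-ribosyltransferase gene (chr16:35843890-35844391), values were 5.42 and 5.33 in ML, 4.32 and 4.01 in MT, and 3.78 and 3.61 in MM, a difference of 1.21 ± 0.14 (adjusted p = 4.09e-07). TNF also opened this region, in part (MT minus MM 0.47, adjusted p = 0.0368). The region at the start of Ifit2, a neighbour of Ifit3, had 4.4 and 4.52 in ML, 4.57 and 4.64 in MT, and 4.6 and 4.81 in MM, a difference of -0.14 ± 0.15 (adjusted p = 0.607). Of 8 Ifit2 regions, 2 were higher in ML than in MT and none was lower. The one with the smallest p, inside the gene, had a difference of 0.94 ± 0.26 (adjusted p = 0.029). It ran from 0.54 to 1.34 with 1 library left out. The start of Rsad2, which encodes the antiviral enzyme viperin, had 5.07 and 5.39 in ML, 4.81 and 4.72 in MT, and 4.7 and 4.86 in MM, a difference of 0.47 ± 0.13 (adjusted p = 0.027) that lost its call without ML replicate 2 or either MT library (highest adjusted p = 0.333).

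**Figure D3:**
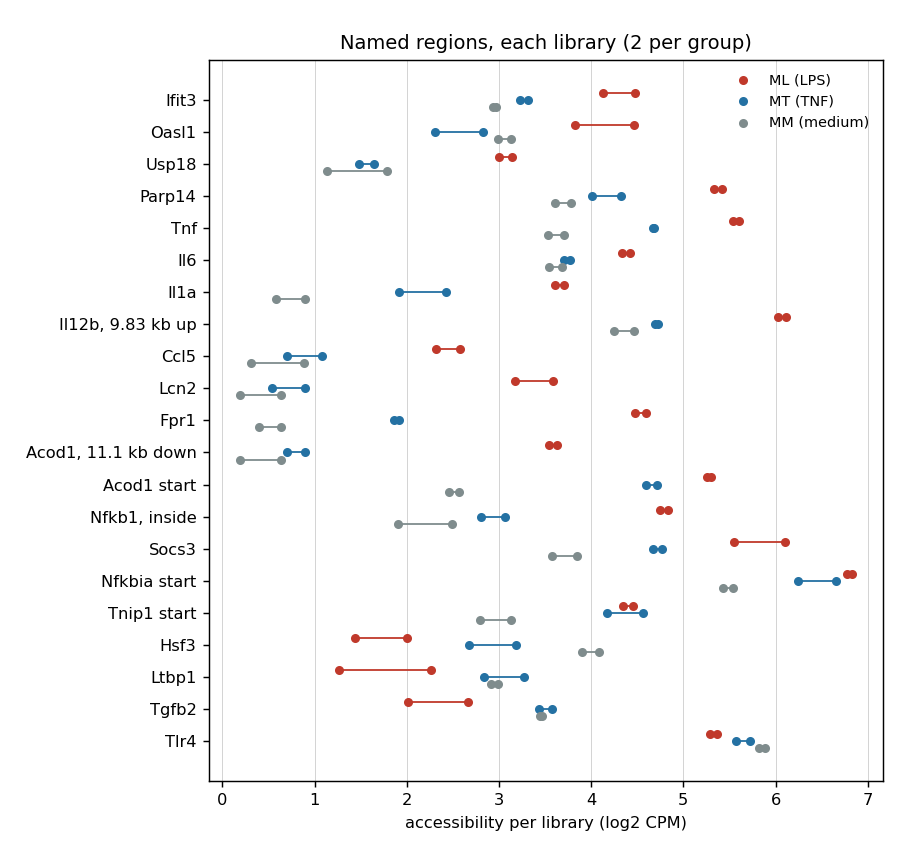
Accessibility (log2 CPM, horizontal axis) of 21 named regions in each library of ML, MT and MM, with a line joining the 2 libraries of a group. At Usp18 and Lcn2 the MT libraries lie near MM. At Parp14, Tnf and the Acod1 start they lie between MM and ML, and at the Tnip1 start they lie with ML.

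At the genes of NF-kB itself and of its inhibitors, the regions with the largest excess in ML lay inside or away from the genes. Of 110 regions of NF-kB subunits, IkB proteins and IKK, 11 (10%) were higher and none lower in ML than in MT, against 3.6% and 1.57% of all regions. Against medium, 51 (46.4%) were higher in ML and 24 (21.8%) in MT, beside 15.5% and 6.15% of all regions. The start of Nfkbia, which encodes the inhibitor IkB-alpha (chr12:55492523-55493024), had 6.78 and 6.83 in ML, 6.66 and 6.24 in MT, and 5.54 and 5.43 in MM. It was 1.32 above medium in ML and 0.96 above medium in MT, and the difference of 0.35 ± 0.13 between them did not pass (adjusted p = 0.0998). It passed without MT replicate 1 (adjusted p = 0.0267). The region 24.9 kb downstream of the same start (chr12:55467527-55468028) had 3 and 2.66 in ML, 0.97 and 0.69 in MT, and 0.58 and 0.31 in MM. Of the 3 conditions only ML was high there, by 2 ± 0.27 over MT (adjusted p = 3.25e-06). Nfkb1 is the gene of the p105 and p50 subunit. Its most open region within 1 kb of a gene end (chr3:135691222-135691723) had 5.1 and 5.15 in ML, 5.23 and 5.2 in MT, and 4.23 and 4.77 in MM, with ML minus MT at -0.09 ± 0.16 (adjusted p = 0.795). Nfkb2, the gene of the p100 and p52 subunit, has a region at the start window shown above (chr19:46305328-46305829) with 4.82 and 4.89 in ML, 4.27 and 3.92 in MT, and 3.95 and 3.75 in MM. Its difference of 0.76 ± 0.17 (adjusted p = 0.00385) lost its call without ML replicate 2 or MT replicate 2 (highest adjusted p = 0.163). An internal region of Nfkb1 (chr3:135670542-135671043) had 4.83 and 4.75 in ML, 2.8 and 3.07 in MT, and 1.91 and 2.49 in MM, a difference of 1.86 ± 0.18 (adjusted p = 5.15e-09).

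Of 240 regions of negative feedback genes, 28 (11.7%) were higher and 1 was lower in ML than in MT, against 3.6% and 1.57% of all regions. The start of Tnip1, which encodes a partner of the deubiquitinase A20 (chr11:54962746-54963247), had 4.45 and 4.34 in ML, 4.17 and 4.56 in MT, and 2.79 and 3.13 in MM. Both stimuli opened it to overlapping levels, 1.43 above medium in ML and 1.41 in MT (adjusted p = 1.28e-07 and 7.1e-07), and ML minus MT was 0.03 ± 0.19 (adjusted p = 0.948). Inside the same gene (chr11:54936013-54936514) values were 5.61 and 5.46 in ML, 4.31 and 4.5 in MT, and 3.83 and 3.94 in MM, a difference of 1.13 ± 0.16 (adjusted p = 5.73e-06). The start of Socs3, the inhibitor of interleukin 6 receptor signalling (chr11:117969084-117969585), had 6.1 and 5.55 in ML, 4.77 and 4.67 in MT, and 3.85 and 3.57 in MM. Each stimulus opened it and LPS exceeded TNF by 1.11 ± 0.16 (adjusted p = 9.99e-06), as it did at 7 of 11 Socs3 regions. Inside Irak3, which encodes a kinase-like inhibitor of TLR signalling (chr10:120191153-120191654), values were 3.42 and 3.54 in ML, 1.39 and 2.21 in MT, and 0.19 and 0.31 in MM, a difference of 1.68 ± 0.25 (adjusted p = 2.41e-05). At Tnfaip3, the gene of A20, 2 of 14 regions were called higher, and its most open start region had 5.61 and 5.59 in ML, 5.32 and 5.09 in MT, and 5.02 and 5.04 in MM, a difference of 0.39 ± 0.14 that did not pass (adjusted p = 0.0837).

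Some genes of the TNF receptor complex had regions more open with LPS than with TNF. Of 110 regions of this list, 13 (11.8%) were higher and none lower in ML, near 8 of 22 genes. Against medium, 34 (30.9%) were higher in ML and 17 (15.5%) in MT, beside 15.5% and 6.15% of all regions. Inside Traf2, the gene of the adaptor that brings cIAPs to the receptor (chr2:25534166-25534667), values were 4.93 and 4.89 in ML, 3.98 and 3.66 in MT, and 2.04 and 1.91 in MM. TNF opened this region by 1.85 over medium (adjusted p = 1.86e-09) and ML exceeded MT by 1.09 ± 0.18 (adjusted p = 0.000152). Inside Traf1, a related adaptor gene induced by NF-kB (chr2:34953700-34954201), values were 3.22 and 3.17 in ML, 1.79 and 1.52 in MT, and 0.19 and 1.13 in MM, a difference of 1.54 ± 0.27 (adjusted p = 0.000236). Inside Otulin, which encodes the deubiquitinase of linear ubiquitin chains (chr15:27625296-27625797), values were 6.75 and 6.66 in ML, 5.77 and 5.69 in MT, and 5.95 and 5.83 in MM. Both MT libraries lay below both medium libraries without a call (MT minus MM -0.16, adjusted p = 0.484), and ML exceeded MT by 0.98 ± 0.11 (adjusted p = 5.24e-08). Of 149 regions of the LPS receptor and its MyD88 and TRIF arms, 7 (4.7%) were higher in ML, near the 3.6% of all regions. The region of Tlr4 itself within 1 kb of a gene end (chr4:66827307-66827808) had 5.37 and 5.29 in ML, 5.72 and 5.57 in MT, and 5.82 and 5.89 in MM. Both ML libraries lay below both MT libraries there, the difference of -0.31 ± 0.13 did not pass (adjusted p = 0.163), and ML minus MM was -0.52 (adjusted p = 0.00325). The start of the TNF receptor gene Tnfrsf1b had 4.48 and 4.53 in ML, 4.38 and 4.18 in MT, and 4.42 and 4.39 in MM, with no call in any of the 3 comparisons. Of 14 Tnfrsf1b regions 1 was higher in ML than in MT, 7.73 kb upstream (0.43 ± 0.13, adjusted p = 0.0357). Its difference was 0.37 to 0.49 with 1 library left out. That region was above medium in ML (1.03, adjusted p = 3.7e-08) and in MT (0.6, adjusted p = 0.00109).

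Of 307 regions of AP-1, immediate early and induced transcription factor genes, 17 (5.54%) were higher and 1 lower in ML, against 3.6% and 1.57% of all regions. Inside Batf, an AP-1 family gene (chr12:85703383-85703884), values were 2.9 and 2.74 in ML, 0.7 and 0.69 in MT, and 1.13 and -0.1 in MM, a difference of 2.12 ± 0.31 (adjusted p = 1.47e-05). Upstream of Klf6, a Krüppel-like factor gene (chr13:5828588-5829089, 32.7 kb from the start), values were 4.5 and 4.56 in ML, 2.73 and 3.15 in MT, and 2.99 and 3.08 in MM. MT overlapped medium, and ML exceeded MT by 1.59 ± 0.17 (adjusted p = 3.39e-08). Of 256 regions of macrophage identity genes, 23 (8.98%) were higher and 1 lower in ML. Near Zeb2, a zinc finger repressor that maintains macrophage identity (chr2:44956859-44957360, between genes), values were 3.13 and 3.33 in ML, 1.39 and 1.08 in MT, and -0.05 and 0.31 in MM, a difference of 2 ± 0.24 (adjusted p = 4.09e-07). Inside Mitf, a basic helix-loop-helix factor gene (chr6:97961823-97962324), values were 3.76 and 3.79 in ML, 2.31 and 2.36 in MT, and 2.42 and 2.23 in MM, a difference of 1.44 ± 0.19 (adjusted p = 2.99e-06). TNF libraries overlapped medium at Mitf and lay above it at Zeb2 (MT minus MM 1.1, adjusted p = 0.00162).

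Antigen presentation and costimulation genes had 13 of 125 regions (10.4%) higher in ML and none lower, near 11 of 31 genes. Inside Cd274, which encodes the checkpoint ligand PD-L1 (chr19:29383298-29383799), values were 4.18 and 4.18 in ML, 3.34 and 3.23 in MT, and 2.21 and 2.57 in MM, a difference of 0.89 ± 0.18 (adjusted p = 0.00195). Upstream of Slamf1, a self-ligand receptor gene (chr1:171762584-171763085), values were 2.37 and 2.44 in ML, 0.97 and 1.08 in MT, and 0.74 and 1.13 in MM, a difference of 1.38 ± 0.24 (adjusted p = 0.000329). TNF had opened the Cd274 region in part (MT minus MM 0.89, adjusted p = 0.000754) and was not called at the Slamf1 region (0.09, adjusted p = 0.908). Lipid and cholesterol handling genes had 3 of 202 regions higher (1.49%), and cell cycle genes 1 higher (0.893%) and 1 lower of 112. Both shares of higher regions lay below the 3.6% of all regions. Alternative activation genes had 3 higher (3.33%) and 3 lower of 90 regions, beside 3.6% and 1.57% of all regions. Their share of higher regions was thus near that of all regions. Upstream of Retnla, a marker of alternative activation (chr16:48831176-48831677), values were 1.87 and 1.79 in ML, 2.8 and 2.67 in MT, and 3.94 and 3.78 in MM. Both stimuli lowered it against medium (ML minus MM -2.03, adjusted p = 5.65e-06, and MT minus MM -1.12, adjusted p = 0.0221), and the difference between them of -0.9 ± 0.32 did not pass (adjusted p = 0.0868).

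**Figure D4:**
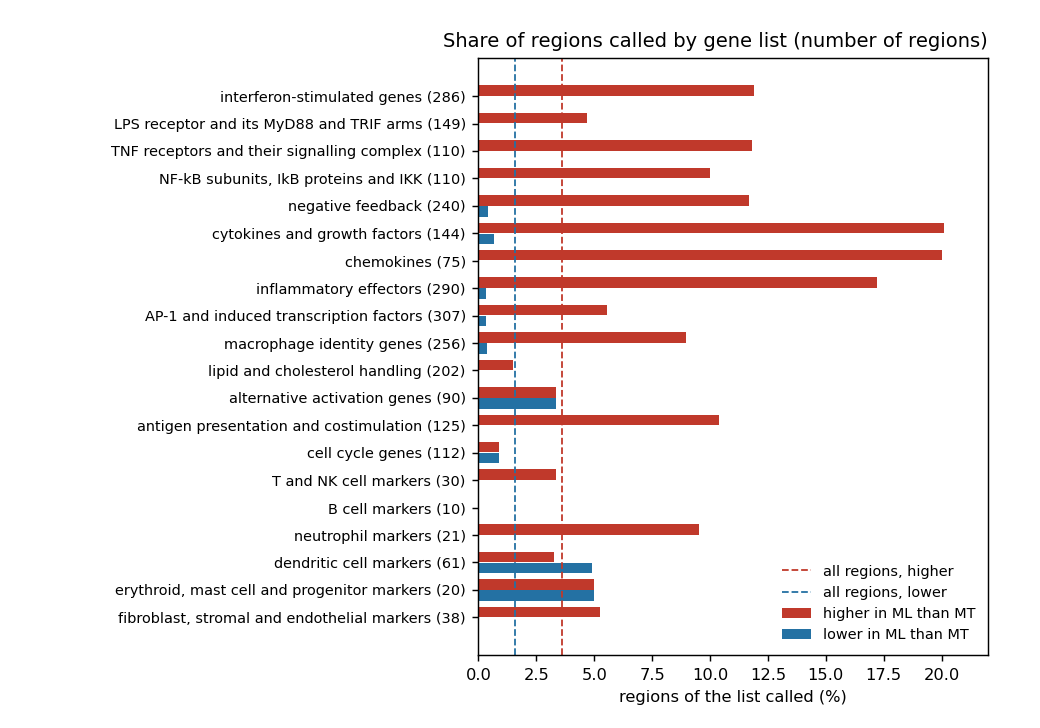
Share of the regions of each gene list (percent, horizontal axis) higher (red bars) and lower (blue bars) in ML than in MT, with the number of regions in brackets and the shares of all regions as dashed lines (3.6% higher, 1.57% lower). Cytokines, chemokines and inflammatory effectors reach 17.2% to 20.1% higher, and lipid handling and cell cycle genes lie below 3.6%.

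The list counts depended on single libraries, as did the count over all regions. With each of the 4 libraries left out in turn, 1.08% to 2.95% of all regions were higher in ML. The count of higher regions was then 26 to 37 for inflammatory effectors (8.97% to 12.8%), 10 to 16 for cytokines (6.94% to 11.1%), 7 to 12 for chemokines (9.33% to 16%) and 13 to 23 for interferon-stimulated genes (4.55% to 8.04%). It was 5 to 11 for NF-kB genes (4.55% to 10%), 7 to 27 for feedback genes (2.92% to 11.2%) and 4 to 10 for the TNF receptor complex (3.64% to 9.09%). It was 2 to 8 for antigen presentation (1.6% to 6.4%), 6 to 13 for macrophage identity (2.34% to 5.08%), 4 to 16 for AP-1 and induced factors (1.3% to 5.21%) and 1 to 6 for the LPS receptor arms (0.671% to 4.03%). Antigen presentation at its lowest, without MT replicate 2, stood beside 1.33% of all regions, and AP-1 and induced factors at their lowest, without ML replicate 2, beside 1.4%, so both were then near the share of all regions. Alternative activation genes then had no higher region.

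At the median, the 843 regions lower in ML than in MT were below medium with LPS and near medium with TNF. Their median level was 3.81 in ML, 4.5 in MT and 4.54 in MM. Over them the median of ML minus MM was -0.7 and that of MT minus MM was -0.03. The largest falls lay near Ltbp1, Stac, Hsf3, Srd5a1, Mrpl1, Ptbp2, Pwwp2b and Tgfb2, from -1.29 to -1.17, so none approached the largest rises in size. At the start of Ltbp1, which encodes a protein that stores latent TGF-beta in the matrix (chr17:75004783-75005284), values were 2.26 and 1.26 in ML, 2.84 and 3.27 in MT, and 2.99 and 2.91 in MM, a difference of -1.29 ± 0.29 (adjusted p = 0.00478). Inside Tgfb2, the gene of TGF-beta 2 (chr1:186703407-186703908), values were 2.01 and 2.66 in ML, 3.43 and 3.57 in MT, and 3.47 and 3.45 in MM, a difference of -1.17 ± 0.27 (adjusted p = 0.00721). MT was not called against medium at either gene (0.1, adjusted p = 0.917 at Ltbp1, and 0.04, adjusted p = 0.969 at Tgfb2). Inside Hsf3, a heat shock factor gene (chrX:96314022-96314523), values were 1.44 and 2 in ML, 3.19 and 2.67 in MT, and 3.9 and 4.08 in MM, a difference of -1.21 ± 0.3 (adjusted p = 0.0112), and TNF also lowered this region (MT minus MM -1.06, adjusted p = 0.0207). Of these 8 falls, 0 stayed called with every one of the 4 libraries left out in turn. The highest adjusted p was 0.215 for Ltbp1 (without ML replicate 2 or MT replicate 2 it was not called), 0.23 for Tgfb2 (ML replicate 1, MT replicate 2) and 0.231 for Hsf3 (ML replicate 1, MT replicate 1).

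Regions higher and lower in ML differed in where they lay. Among the 1934 higher regions, 48.7% were in gene bodies, 29.3% were intergenic but at most 50 kb from a gene, 14.1% were near a gene end (up to 1 kb) and 7.91% were farther away. Among the 843 lower regions these shares were 36.4%, 20.1%, 27.9% and 15.7%, and among all regions 43.3%, 22.9%, 24.6% and 9.21%. A RefSeq start window overlapped 6.57% of the higher regions, 18.3% of the lower ones and 15.3% of all.

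The letters capitalised in the 6 printed windows were counted in all start windows at least 150 bases of which lay in a region. Of 148 windows under higher regions, 10.1% held GGANTTTCC, against 0.535% of 187 windows under lower regions, 1.22% of 9984 windows under any region and 1.26% of all 32544 windows. The second NF-kB form GGGANTTCC was in 4.73%, 3.21%, 2.57% and 1.69% of these. The interferon element GAAANNGAA was in 12.8% of windows under higher regions, 3.74% under lower ones, 7.11% under any region and 8.53% of all. The AP-1 letters TGANTCA were in 10.1%, 6.42%, 5.31% and 7.79%. The PU.1 letters GAGGAAGT were in 6.08%, 3.74%, 3.81% and 3.11%, the C/EBP letters TTGCNNAA in 10.8%, 5.35%, 8.44% and 10.8%, and the CTCF core AGGGGGCGC in 1.35%, 1.07%, 2.28% and 1.25%. Both strands were searched, a window can hold several motifs, and matches of different motifs may overlap. Start windows can also overlap each other, so the same site can be counted more than once. The GGANTTTCC match of the Nfkb2 window, for example, was also counted in an overlapping window on the other strand. These are shares of letter matches without a test, and most higher regions lie outside these windows and were not searched.

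At the median, the regions higher in ML were also more open than in medium with the other TLR ligands. Over the 1934 regions the median level was 3.97 in ML, 3.02 in MT and 2.53 in MM, beside 4.17 in MC and 3.7 in MP. With CpG first it was 4.37 in CL and 4.12 in CT, and with polyI:C first it was 4.16 in PL and 3.51 in PT. Over the 843 lower regions it was 3.81 in ML, 4.5 in MT and 4.54 in MM, beside 4.03 in MC, 4.14 in MP, 3.93 in CL, 4.05 in CT, 4.08 in PL and 4.51 in PT. The classes were chosen on ML and MT, so the values of those 2 groups are a description. Single regions departed from these medians. At the Pdss1 region MP had 2.91 and 3.03, near MM (2.96 and 2.85), while MC had 6.12 and 6.24. At the distal Acod1 region MP had 4.75 and 4.51, above ML (3.54 and 3.63). Among the 8 largest rises, both MP libraries lay below both ML libraries except at Acod1 and Ms4a6d.

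**Figure D5:**
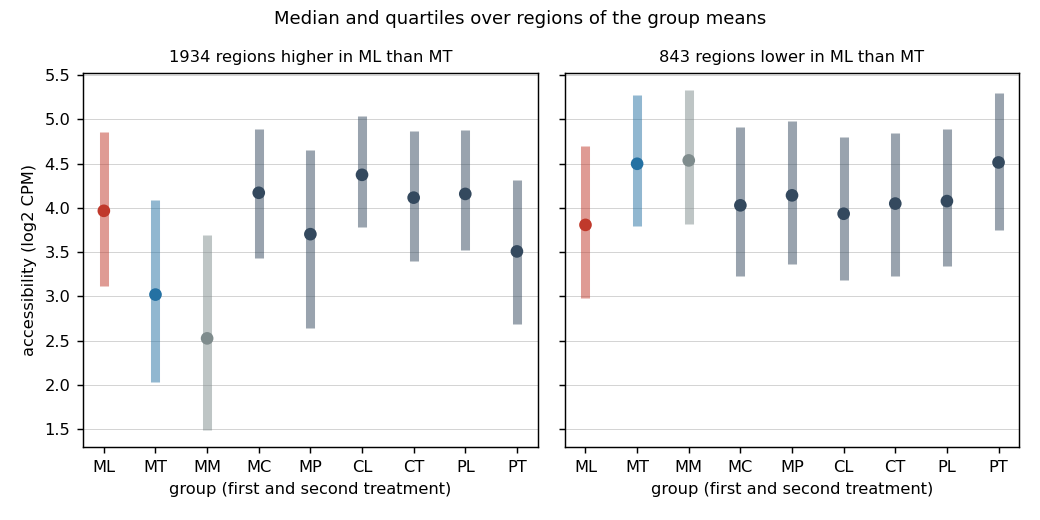
Median (points) and quartiles (bars) over regions of the group mean accessibility (log2 CPM, vertical axis) in each of the 9 groups (horizontal axis), for the 1934 regions higher and the 843 lower in ML than in MT. In the higher class MT (3.02) and MM (2.53) lie lowest and CL highest (4.37), and in the lower class MT, MM and PT lie highest.

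The same pair of second stimuli was compared after CpG and after polyI:C, in other libraries than those of ML and MT. After CpG, LPS and TNF differed at few regions, with 132 (0.245%) higher and 54 (0.1%) lower in CL than in CT. Of the 1934 regions higher in ML, 70 (3.62%) were also higher in CL, and they made up 53% of its 132. The median difference over the 1934 regions was 0.22 for CL minus CT. After polyI:C, 3489 regions (6.49%) were higher and 2003 (3.72%) lower in PL than in PT, 10.2% in all. Of the 1934 regions, 992 (51.3%) were higher in PL, 28.4% of its 3489, and of the 843 lower regions 277 (32.9%) were lower in PL, 13.8% of its 2003. The median difference over the 1934 regions was 0.62 for PL minus PT. These counts rest on single libraries. Without CL replicate 1 only 3 regions were called in CL minus CT, 44 without CL replicate 2, 58 without CT replicate 1 and 4 without CT replicate 2. PL minus PT had 1073 without PL replicate 1, 2170 without PL replicate 2, 1055 without PT replicate 2 and 14694 without PT replicate 1. The PT replicates correlated less over regions (0.919) than those of ML, MT, MM, CL, CT and PL (0.958 to 0.973).

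The dependence on the first stimulus was tested as a difference of differences. Between ML minus MT and CL minus CT it was called at 171 regions (0.318%), with ML minus MT above CL minus CT at 160 (0.297%) and below it at 11 (0.0204%). Of the 160, 154 were among the 1934 regions, and of the 11, 4 were among the 843 lower ones. Such overlap is largely built in because ML minus MT is part of both. The count was 52 without CT replicate 2, 58 without ML replicate 1, 62 without CL replicate 1, 75 without CL replicate 2, 77 without MT replicate 2, 92 without ML replicate 2 and 279 without MT replicate 1. At the Pdss1 region CL had 6.26 and 6.14, CT 6.31 and 6.28, and MC, with CpG and neither LPS nor TNF, 6.12 and 6.24. The difference of differences was 2.75 ± 0.2 (adjusted p = 2.28e-11). At the Uaca region CL had 4.71 and 4.67, CT 4.38 and 4.79, and MC 4.29 and 4.46 (3.26 ± 0.36, adjusted p = 7.11e-07). At the Fpr1 region CL had 5.81 and 5.66, CT 5.13 and 5.04, and MC 5.19 and 5.28 (1.99 ± 0.3, adjusted p = 2e-04). In these 3 regions both CT libraries lay above both ML libraries, and so did both MC libraries.

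Between ML minus MT and PL minus PT no region was called in the limma fit, with 2819 regions at an unadjusted p under 0.05, 0 called by voom and 1 after quantile normalization. Without PT replicate 1 the count was 371, without PT replicate 2 it was 6 and without MT replicate 1 it was 2. At the Pdss1 region PL had 5.99 and 6.03 and PT 3.56 and 3.59, a difference of 2.43 ± 0.14. Both PT libraries lay below both PL libraries, as MT lay below ML. At the Ifit3 start PL had 4.71 and 4.64 and PT 4.96 and 4.59, a difference of -0.1 ± 0.17, and its difference of differences was 1.13 ± 0.25 (adjusted p = 0.242). At the Oasl1 start PL had 5.84 and 5.54 and PT 5.65 and 5.04, with 1.22 ± 0.27 (adjusted p = 0.242). Both groups with polyI:C first lay above ML at Oasl1, and neither test passed.

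Reads in regions numbered 5277854 and 5623166 in ML, 5986835 and 3936304 in MT, and 5695271 and 3141641 in MM, within 3141641 to 5986835 over the 18 libraries. Replicates correlated across regions at 0.973 in ML, 0.965 in MT and 0.967 in MM. Accessible regions lay near 38 of 39 macrophage identity genes, with a summed level of 5214 and 5102 CPM in ML and 4806 and 4600 CPM in MT. Regions lay near 12 of 22 T and NK cell markers (483 to 487 CPM in ML, 485 to 531 in MT), 3 of 13 B cell markers (82.7 to 99 in ML, 85.8 to 89.9 in MT), 11 of 16 neutrophil markers (330 to 333 in ML, 291 to 297 in MT), 11 of 12 dendritic cell markers (848 to 863 in ML, 899 to 944 in MT), 7 of 16 erythroid, mast cell and progenitor markers (302 to 304 in ML, 334 to 374 in MT) and 9 of 16 fibroblast, stromal and endothelial markers (604 to 613 in ML, 591 to 595 in MT). The neutrophil list held 2 higher regions of 21, near Camp and Csf3r, and its summed level was higher in both ML libraries than in both MT libraries. The T and NK cell list held 1 higher region, the B cell list 0, the dendritic cell list 2 higher and 3 lower, the erythroid list 1 higher and 1 lower, and the stromal list 2 higher. A region near a marker gene is not its expression, and the part of other cells in the differences was not tested.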

How the data were processed

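ATAC-seq libraries of mouse macrophages were used from 9 groups of 2. The deposited table holds log2 CPM values made by the authors for 53796 regions of 501 bases on 20 chromosomes. Per the submitters' processing notes, Bowtie2 2.2.5, SAMtools 1.9, Picard, MACS3 3.0.0b1, featureCounts and the build mm10 (GRCm38) were used. Their settings, and any read shift for the transposase, are not given in the sources used here. Coordinates are as deposited, and whether they count from 0 or 1 is not stated. Low values were whole multiples of 1 read within a tolerance of 0.01, with a prior of 3 reads on average, so a region with 0 reads reads about -0.7. Reads recovered from these steps were used only for depth and for alternatives.

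limma 3.58.1 (R 4.3.3) was fitted to the deposited log2 values of all 18 libraries with 1 mean per group, a variance trend on level and Benjamini-Hochberg adjustment over all regions. The fit had 9 residual and 29.09 prior degrees of freedom. Each region was given to the nearest protein-coding gene body within 50 kb in RefSeq (GRCm38.p6), which placed 48840 regions. Start distances come from the RefSeq promoter table. No genome was used, so letters were searched only in RefSeq start windows of 300 bases.

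Named regions are the 8 largest rises and 8 largest falls with separate groups, 1 per gene and with a higher group mean of at least 1, up to 4 called regions per gene list by p, and fixed genes by their most open region within 1 kb of a gene end and by their smallest p. The comparison, the 20 gene lists (595 genes, 526 with a region) and the fixed genes were chosen with earlier results of these data known. The alternatives were other scalings, filters, pseudocounts, variance priors and fits, voom on recovered reads, and each library left out. Some of the named regions are not reported here.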

Additional observations from a re-analysis of the deposited data

Results flagged for a closer look

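The difference between LPS and TNF depended on whether CpG came first at 171 regions, by the test of (ML minus MT) minus (CL minus CT) in limma. Among the named regions the excess of LPS over TNF was larger without CpG at 24. On the log2 scale this difference of differences was 3.26 at Uaca, 2.75 at Pdss1, 2.54 at Radx, 2.35 at Foxp1, 2.15 at the distal Nfkbia region, 2.12 at Lcn2, 2 at Batf and 1.99 at Fpr1. It was 1.72 at Zeb2, 1.57 at the internal Nfkb1 region, 1.52 at the distal Acod1 region, 1.49 at Ikzf1, 1.44 at Klf6, 1.33 at Mitf, 1.32 at Ccl9 and 1.3 at Il12a. It was 1.14 at both Oasl1 and Socs3, 1.13 at the distal Il12b region, 1.03 at Otulin, 0.97 at the internal Tnip1 region, 0.93 at Parp14, 0.92 at Il1b and 0.84 upstream of Irf1. The named regions were chosen on ML minus MT, which is 1 side of this difference, so their direction is not independent of that choice.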

How the results depend on the processing

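With 2 libraries per group and 9 residual degrees of freedom, counts of calls depended on the fit and on single libraries. The cause was not tested. ML minus MT had 2777 calls, 1704 without the variance trend and 6702 with only the compared groups in the fit. Calls higher in ML numbered 1285 above the 25th percentile of level (40347 regions), 3974 with only the compared groups and 1265 after quantile normalization. Calls lower in ML numbered 370 without the trend and 2728 with only the compared groups. With 1 library left out, where the lone library is assumed to vary like the other groups, these 3 counts ran from 662 to 2165, 580 to 1586 and 53 to 579. Of the higher calls in those fits 577, 744, 1223 and 675 were among the 1934, without ML1, ML2, MT1 and MT2.
CL minus CT (186) had 89 calls with the filter, 1142 with only the compared groups, 414 after quantile normalization, 873 with voom and 3 to 58 with 1 library left out. PL minus PT (5492) had 2631 without the trend, 620 with only the compared groups and 1055 to 14694 with 1 left out. The difference of differences with CpG (171) had 65 without the trend, 928 with only the compared groups, 101 after quantile normalization, 400 with voom and 52 to 279 with 1 left out. The one with polyI:C (0) had 1 after quantile normalization and 0 to 371 with 1 left out. These omissions outside ML minus MT, and those for the gene lists, were chosen after seeing the data.
The share of ML minus MT calls also called in CL minus CT (2.77%) was 3.65% with log2(CPM + 1), 2.21% with the filter, 5.71% with only the compared groups, 4.85% after quantile normalization and 7.99% with voom. In PL minus PT (45.7%) it was 40.2% without the trend, 6.68% with only the compared groups, 54.1% after quantile normalization and 36.3% with voom.
Of 90 called named regions, 23 lost the call without the trend, 11 after quantile normalization, 4 with voom, and 34, 33, 21 and 40 without ML1, ML2, MT1 and MT2. The Tnip1 start (0.03) changed sign with 1 library left out, running from -0.17 without MT1 through -0.03 without ML1 to 0.22 without MT2. After quantile normalization 21 regions of the interferon list, 6 of the TNF receptor list, 7 of the NF-kB list, 17 of the cytokine list, 11 of the AP-1 list, 15 of the macrophage identity list and 7 of the antigen presentation list were higher. Within 10 kb of a gene the AP-1 list had 9.
With the replicate number as a replicate block ML minus MT had 2631 calls. Same-numbered ML and MT libraries deviated with a correlation of 0.0612, and over all pairs of groups it ran from -0.358 to 0.242. The labels do not say that the numbers pair the libraries, so no block was used in the other fits. Motifs within regions, and their central-window alternative, were not run.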

Other observations

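Of 13253 genes with a region, 1264 had at least 1 region higher in ML than in MT, 600 at least 1 lower, and 40 had both. These genes were chosen after their values were seen. Besides Acod1, the genes with the most higher regions were Lpp, a focal adhesion protein gene (9 of 49), Abr (8 of 25), Ehd1, an endocytic recycling gene (8 of 10), Lyn, a Src family kinase gene (8 of 21), and Pik3ap1, which links TLR signalling to PI3 kinase (8 of 19). None of these had a lower region. The genes with the most lower regions were Ank2, an ankyrin gene (5 of 11), Kif16b, Pdlim5 and Tnr, with 4 each and no higher region.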
